A study of Homo sapiens with 12 samples.

Results

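The genes described here are 35 genes of glycolysis and of the response to low oxygen, out of 34595 rows of an expression table from the human endometrial cancer line ECC1. They were chosen by symbol, and all 35 were found in the table. They comprise 20 glycolytic enzymes and transporters, 14 other targets of the hypoxia response, and HIF1A itself. RNA was hybridized to 12 Illumina whole-genome arrays, 3 in each of 4 groups: MTDH knockout (KO) cells given 10 nM estradiol for 24 h, parental cells given the same, untreated KO cells and untreated parental cells. All cells spent 24 h in medium with charcoal-stripped serum first. MTDH, also called metadherin, is overexpressed in many tumours, and estradiol acts through estrogen receptors. The knockout is 1 line, and how it was made is not given in the sources used here. No vehicle is named for the untreated cells. Nothing in the labels ties the 3 arrays of a group to separate cultures, so p-values measure the spread between these arrays, which may be technical.

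Glycolysis turns glucose into pyruvate in the cytosol, and lactate dehydrogenase and lactate export let it run when oxygen is scarce. The factor HIF-1, of which HIF1A encodes the oxygen-regulated subunit, binds the short DNA core ACGTG or its variant GCGTG and is known to raise many of these genes. HIF1A is regulated mainly through the stability of its protein, which an RNA array does not measure. In the endometrium, estrogen is known to raise the angiogenic factor VEGFA.

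The promoters of 6 members are shown as examples of members called below: SLC16A3 and BNIP3 were higher with estradiol, and ALDOA, GAPDH, HIF1A and, less stably, LDHA were lower in untreated KO cells. Each is the 250 bases before the RefSeq gene start on GRCh38.p14, read 5′ to 3′ on the gene's strand. The windows are chr17:82228185-82228434 on the plus strand for SLC16A3, chr10:131981924-131982173 on the minus strand for BNIP3, chr16:30064029-30064278 on the plus strand for ALDOA, chr12:6535014-6535263 on the plus strand for GAPDH, chr11:18394313-18394562 on the plus strand for LDHA and chr14:61695263-61695512 on the plus strand for HIF1A. Capitals mark the core on either strand, with A or G as its first base.
SLC16A3: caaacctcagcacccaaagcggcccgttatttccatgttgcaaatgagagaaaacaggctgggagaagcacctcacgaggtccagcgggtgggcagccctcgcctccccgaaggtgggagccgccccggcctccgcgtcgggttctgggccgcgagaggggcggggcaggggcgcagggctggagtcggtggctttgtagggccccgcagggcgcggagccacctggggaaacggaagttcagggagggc
BNIP3: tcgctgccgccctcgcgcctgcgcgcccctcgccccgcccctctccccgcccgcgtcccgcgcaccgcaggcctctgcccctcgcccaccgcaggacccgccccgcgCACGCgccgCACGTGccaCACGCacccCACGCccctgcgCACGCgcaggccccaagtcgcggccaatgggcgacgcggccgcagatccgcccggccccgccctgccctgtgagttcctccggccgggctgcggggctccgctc
ALDOA: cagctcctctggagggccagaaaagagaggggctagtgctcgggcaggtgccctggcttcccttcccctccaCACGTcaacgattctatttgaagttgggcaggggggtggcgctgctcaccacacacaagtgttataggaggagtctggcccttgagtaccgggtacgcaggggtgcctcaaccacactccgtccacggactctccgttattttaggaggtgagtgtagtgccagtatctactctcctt
GAPDH: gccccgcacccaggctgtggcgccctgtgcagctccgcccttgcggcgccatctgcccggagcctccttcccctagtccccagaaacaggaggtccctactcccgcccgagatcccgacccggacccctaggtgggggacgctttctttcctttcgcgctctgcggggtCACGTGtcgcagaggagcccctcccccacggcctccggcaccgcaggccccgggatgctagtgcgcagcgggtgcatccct
LDHA: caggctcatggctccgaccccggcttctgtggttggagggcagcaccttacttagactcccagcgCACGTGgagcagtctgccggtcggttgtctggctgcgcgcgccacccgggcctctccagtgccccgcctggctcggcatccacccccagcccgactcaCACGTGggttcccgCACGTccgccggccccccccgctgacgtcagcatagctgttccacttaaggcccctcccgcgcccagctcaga
HIF1A: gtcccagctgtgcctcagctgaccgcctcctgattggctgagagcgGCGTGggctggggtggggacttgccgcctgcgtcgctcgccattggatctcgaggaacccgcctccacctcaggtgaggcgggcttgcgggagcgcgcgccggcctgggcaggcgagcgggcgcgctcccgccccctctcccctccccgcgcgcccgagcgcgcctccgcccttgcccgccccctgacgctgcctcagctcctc
The window of LDHA held 2 copies of CACGTG, in which the core with A reads on both strands, and 1 further copy of that core. BNIP3 held 1 CACGTG and 4 matches to the core with G, whereas neither core was in the window of SLC16A3. PFKP, PGAM1 and PKM2 also fell in untreated KO cells but are not shown, and neither core was in their windows. Among the 31 members with a promoter in the RefSeq table, 14 held ACGTG (45.2%), against 6501 of all 35116 promoters (18.5%). GCGTG was found in 11 of the 31 (35.5%), against 32.2% of all promoters. By class, ACGTG was in 8 of 19 promoters of glycolytic enzymes and transporters and in 6 of 11 of the other hypoxia targets. Many members are known HIF-1 targets, so the choice of genes itself favours the core. The 35116 promoters were not matched to the members by gene type or base composition, and the difference was not tested. A match describes the letters and does not show binding. SLC2A3, VEGFA, BNIP3L and NDRG1 were not among the matched genes.

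The values are log2 intensities. A gene was tested where 3 or more arrays exceeded 6.817, the overall median value, and it was called at an adjusted p under 0.05 (limma, Benjamini-Hochberg over 19670 tested genes). MTDH read 8.57, 8.53 and 8.59 on the untreated KO arrays, against 11.43, 11.18 and 10.78 on the untreated parental arrays. With estradiol it read 10.94, 8.49 and 8.49 on the KO arrays, against 10.83, 10.96 and 8.97 on the parental arrays. KO estradiol 1 and parental estradiol 3 therefore went against their labels. Labels were not changed, and results for the members are given with all 12 arrays and again with 10, without these 2. All 8 epithelial markers checked passed the filter, whereas the leukocyte marker PTPRC and the endothelial marker CDH5 lay on average at percentile 19.2 and 6.49 of the table. In bulk RNA, fewer cells of a type and less RNA per cell cannot be told apart.

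Of the 35 genes, 30 exceeded the filter value on all 12 arrays and 3 on some arrays (SLC2A3 on 5, PDK1 on 4 and MXI1 on 3), so 33 were tested. CA9, a carbonic anhydrase widely used as a marker of hypoxia, read between 6.48 and 6.75. EGLN3, a HIF hydroxylase, read between 6.60 and 6.94. Neither passed the filter. Among the tested genes the range over the 12 arrays was widest for the lactate exporter SLC16A3 (1.62), followed by BNIP3 (1.10) and SLC2A1 (0.99), and narrowest for MXI1 (0.13).

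**Figure D1:**
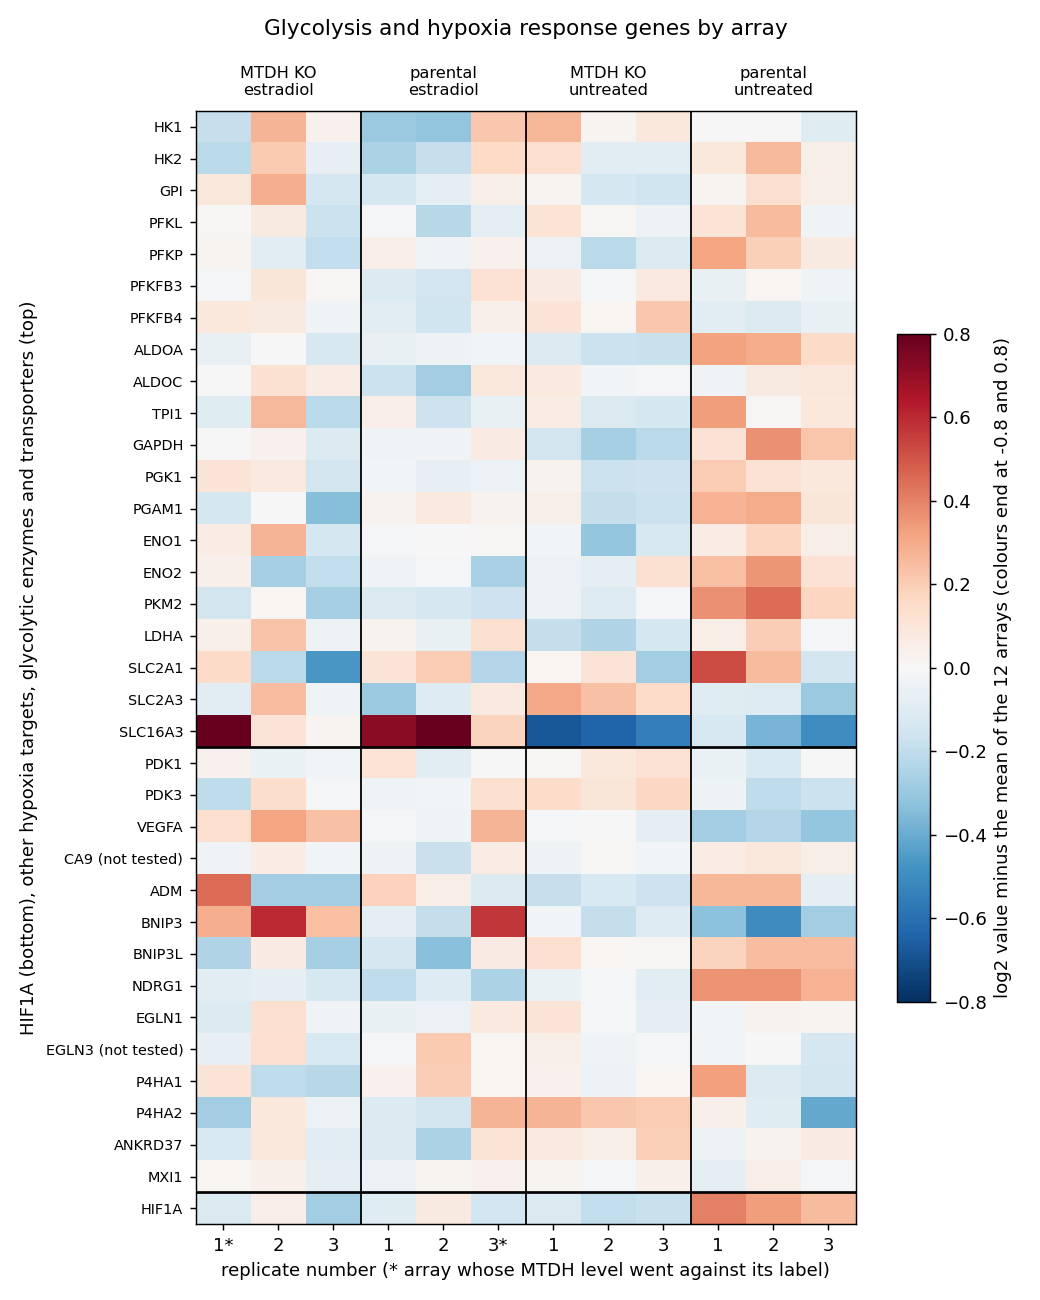
Each row is 1 of the 35 genes and each column 1 array. Colour gives the log2 value minus the gene's mean over the 12 arrays, with glycolytic enzymes and transporters on top, other hypoxia targets below them and HIF1A last. SLC16A3 is above its mean on all 6 estradiol arrays, and PKM2, NDRG1 and HIF1A are above theirs on the 3 untreated parental arrays.

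The first comparison asked how the lines differed without estradiol. Several glycolytic enzymes and HIF1A were lower in KO cells, and the other hypoxia targets went both ways. Of 20 glycolytic enzymes and transporters, 1 rose and 6 fell, with a median difference of −0.24, against −0.03 over all tested genes. Of 12 tested hypoxia targets, 1 rose and 1 fell, with a median of 0.06. With HIF1A, 10 of 33 tested members were called (30.3%), 2 higher and 8 lower, where 10.9% of all tested genes were called, 2.31% higher and 8.63% lower. Of 8 epithelial markers 4 fell as well, with a median of −0.31, and their part in the result was not tested.

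The 6 glycolytic enzymes that fell were ALDOA, GAPDH, PGAM1, PKM2, LDHA and PFKP. GAPDH, which oxidizes glyceraldehyde 3-phosphate, read 12.83, 12.71 and 12.76 in KO cells, against 13.09, 13.34 and 13.20 in parental cells (−0.44 ± 0.07 SE, n = 3 per group, adjusted p = 0.00581). ALDOA, an aldolase, read 9.95, 9.89 and 9.88 in KO cells, against 10.38, 10.36 and 10.21 in parental cells (−0.41 ± 0.06, adjusted p = 0.00496). For both genes all KO arrays lay below all parental arrays. PKM2 is the older symbol of PKM, the pyruvate kinase gene, and its row does not tell the splice forms apart. It read 10.61, 10.55 and 10.64 in KO cells, against 11.02, 11.10 and 10.83 in parental cells (−0.38 ± 0.08, adjusted p = 0.0127). PGAM1, a phosphoglycerate mutase, read 9.88, 9.64 and 9.66 in KO cells, against 10.11, 10.13 and 9.93 in parental cells (−0.33 ± 0.09, adjusted p = 0.0359). LDHA, which makes lactate, read 12.06, 12.01 and 12.11 in KO cells, against 12.30, 12.45 and 12.24 in parental cells (−0.27 ± 0.08, adjusted p = 0.0472). The groups of these 3 genes did not overlap either.

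PFKP, the platelet-type phosphofructokinase, read 9.56, 9.39 and 9.49 in KO cells, against 9.92, 9.80 and 9.68 in parental cells, without overlap (−0.32 ± 0.08, adjusted p = 0.0207). The liver-type enzyme PFKL differed by −0.08 (adjusted p = 0.623). The hexokinases HK1 and HK2, which phosphorylate glucose, differed by 0.16 and −0.15 and were not called.

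The glucose transporter SLC2A3 was higher in KO cells. It read 7.08, 7.01 and 6.92 in KO cells, against 6.68, 6.67 and 6.48 in parental cells (0.39 ± 0.10, adjusted p = 0.0297). All 3 parental values lay below the filter value, so the gene entered the test through the arrays on which it was high, and the call is no independent support for its direction. SLC2A1, the most widespread glucose transporter, read 10.99, 11.08 and 10.70 in KO cells, against 11.50, 11.23 and 10.83 in parental cells, and the groups overlapped (−0.26, adjusted p = 0.401).

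HIF1A read 8.73, 8.65 and 8.67 in KO cells, against 9.25, 9.18 and 9.10 in parental cells (−0.49 ± 0.08, adjusted p = 0.00649). The groups did not overlap, and the difference was the largest of the 33 tested members on the deposited scale, whereas after quantile normalization P4HA2 (0.49) and BNIP3 (0.39) exceeded it (−0.38). Among the hypoxia targets, NDRG1, a stress-response gene, read 7.25, 7.29 and 7.21 in KO cells, against 7.66, 7.66 and 7.58 in parental cells (−0.38 ± 0.06, adjusted p = 0.00496). PDK3, a kinase that inhibits pyruvate dehydrogenase, read 7.35, 7.30 and 7.37 in KO cells, against 7.16, 7.00 and 7.03 in parental cells (0.28 ± 0.08, adjusted p = 0.0486). NDRG1 was lower and PDK3 higher in KO cells, each without overlap, but the call of PDK3 was lost without the filter, with the replicate block and in 9 of 12 fits that left out 1 array. PDK1, which acts like PDK3, differed by 0.13 (adjusted p = 0.246), and the HIF hydroxylase EGLN1 by −0.01 (adjusted p = 0.976).

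With 10 arrays the differences are the same by construction, since both arrays left out were treated, and the pooled spread was smaller. The 10 calls remained and 8 were added, giving 18 of 33 members (54.5%), 6 higher and 12 lower, where 19.5% of all tested genes were called, 5.98% higher and 13.6% lower. Among the glycolytic genes 2 were then higher and 9 lower of 20, and among the hypoxia targets 4 were higher and 2 lower of 12. The added rises were VEGFA (0.25 ± 0.06, adjusted p = 0.00894), P4HA2, a collagen prolyl hydroxylase subunit (0.38 ± 0.09, adjusted p = 0.00641), the mitophagy receptor BNIP3 (0.26 ± 0.09, adjusted p = 0.0467) and PFKFB4, which makes an activator of phosphofructokinase (0.20 ± 0.07, adjusted p = 0.0487). The added falls were the vasodilator peptide gene ADM (−0.31 ± 0.08, adjusted p = 0.0147), the phosphoglycerate kinase PGK1 (−0.24 ± 0.08, adjusted p = 0.0347), the enolase ENO2 (−0.24 ± 0.07, adjusted p = 0.0331) and SLC16A3 (−0.29 ± 0.09, adjusted p = 0.0232).

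P4HA2 read 9.11, 9.05 and 9.04 in KO cells, against 8.88, 8.74 and 8.43 in parental cells. PFKFB4 read 8.93, 8.84 and 9.04 in KO cells, against 8.74, 8.71 and 8.77 in parental cells. Neither gene's groups overlapped. ADM read 8.28, 8.34 and 8.30 in KO cells, against 8.73, 8.73 and 8.39 in parental cells. PGK1 read 10.55, 10.35 and 10.36 in KO cells, against 10.73, 10.64 and 10.61 in parental cells. ENO2 read 7.66, 7.63 and 7.83 in KO cells, against 7.95, 8.06 and 7.82 in parental cells. The groups of ADM and PGK1 did not overlap, whereas those of ENO2 did.

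Scaling moved the balance of this comparison. After quantile normalization 5 members were higher and 5 lower, where 8.04% of all tested genes were called, 4.49% higher and 3.55% lower, and the median of the glycolytic genes was −0.08 in place of −0.24. PFKP, PGAM1 and LDHA were then not called, and VEGFA, PFKFB4 and P4HA2 were. ALDOA, GAPDH, NDRG1 and HIF1A kept their calls under all 9 alternatives and without any 1 of the 12 arrays. Of 12 fits that left out 1 array, PKM2 was called in 10, PFKP and PGAM1 in 8 each, SLC2A3 in 6 and LDHA in 5, and LDHA kept its call under 4 of the 9 alternatives. The count was 5 without parental untreated 1 or KO untreated 3, and 4 without parental untreated 2 or KO untreated 2. The share of all tested genes called was not counted for these fits.

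**Figure D2:**
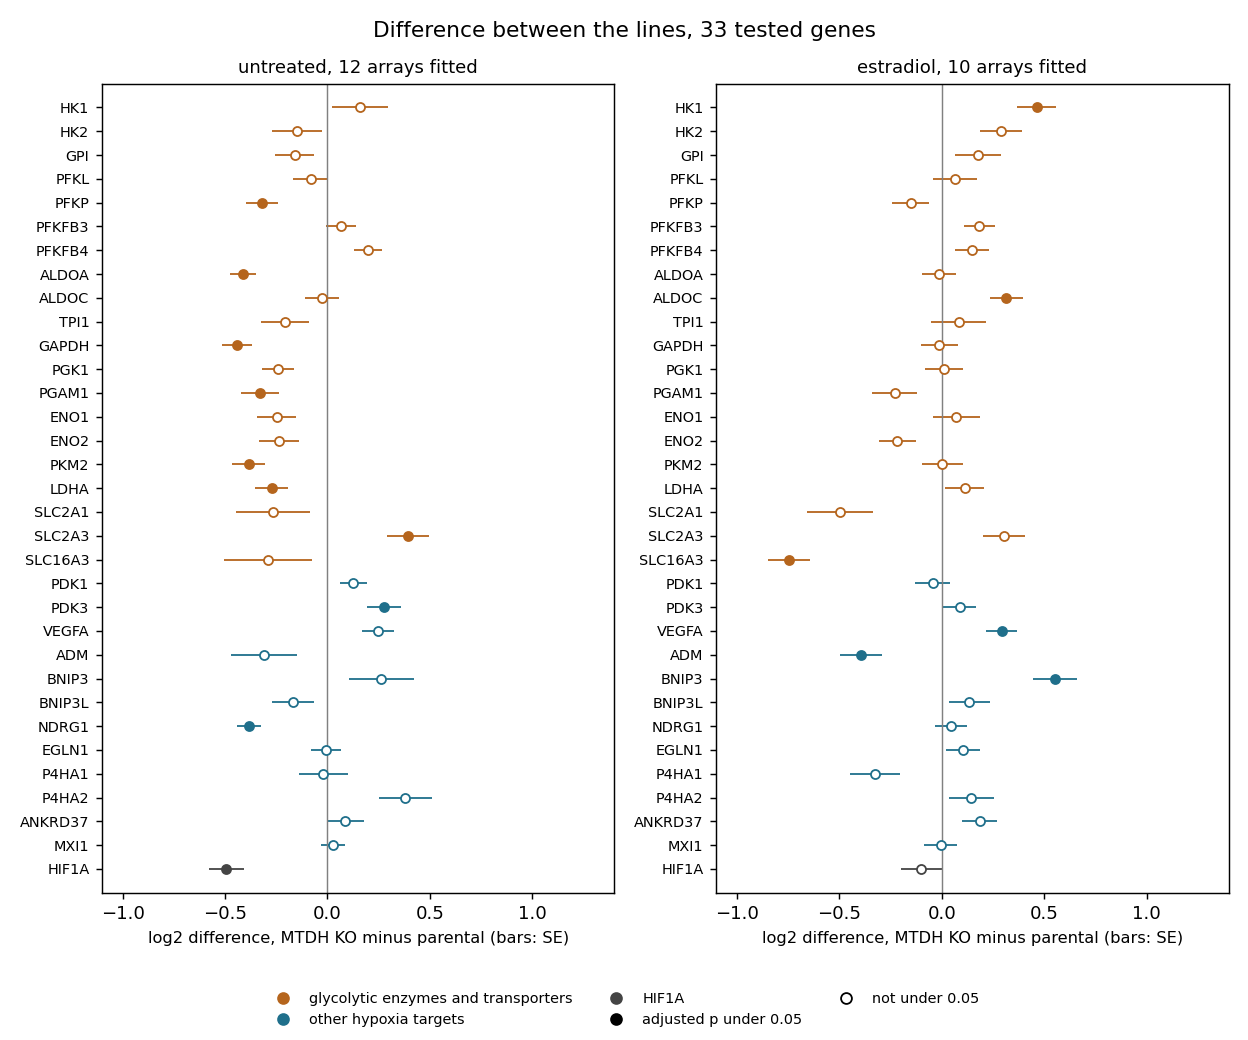
Points give the log2 difference of MTDH KO minus parental cells for the 33 tested genes with SE bars, in untreated cells (12 arrays fitted) and in estradiol (10 arrays fitted). Filled points passed an adjusted p of 0.05. Without estradiol GAPDH, ALDOA, PKM2, NDRG1 and HIF1A stand between −0.49 and −0.38; with estradiol they stand between −0.10 and 0.05, and SLC16A3 stands at −0.74.

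The second comparison asked how the lines differed with estradiol. With all 12 arrays limma called none of the 33 members and 0% of all tested genes, and 1 member and 1064 genes had an unadjusted p under 0.05. With 10 arrays, 6 of 33 members were called (18.2%), 4 higher and 2 lower in KO cells, where 9.79% of all tested genes were called, 4.96% higher and 4.83% lower. The median of the glycolytic genes was 0.07, against 0.02 over all tested genes. This fit compares 2 KO arrays with 2 parental arrays.

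SLC16A3, which exports lactate, read 12.19 and 12.11 in KO cells, against 12.81 and 12.98 in parental cells (−0.74 ± 0.10 SE, n = 2 per group, adjusted p = 0.000125). The arrays left out read 13.04 (labelled KO) and 12.27 (labelled parental). It was lower on both KO arrays, and with 12 arrays the groups overlapped (−0.24, adjusted p = 0.922). BNIP3 read 10.80 and 10.44 in KO cells, against 10.12 and 10.01 in parental cells (0.55 ± 0.11, adjusted p = 0.00279). The arrays left out read 10.49 (labelled KO) and 10.77 (labelled parental). BNIP3 was higher on both KO arrays and overlapped with 12 arrays (0.27, adjusted p = 0.895).

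HK1 read 9.20 and 8.96 in KO cells, against 8.63 and 8.61 in parental cells (0.46 ± 0.09, adjusted p = 0.00388). The arrays left out read 8.74 (labelled KO) and 9.14 (labelled parental). HK1 was higher on both KO arrays, and so was ALDOC, an aldolase typical of brain. ALDOC read 8.58 and 8.52 in KO cells, against 8.29 and 8.18 in parental cells (0.32 ± 0.08, adjusted p = 0.0173). The arrays left out read 8.46 (labelled KO) and 8.55 (labelled parental). With 12 arrays the adjusted p was 0.916 for HK1 and 0.895 for ALDOC.

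VEGFA read 7.99 and 7.91 in KO cells, against 7.67 and 7.64 in parental cells (0.29 ± 0.08, adjusted p = 0.0189). ADM read 8.19 and 8.19 in KO cells, against 8.65 and 8.52 in parental cells (−0.39 ± 0.10, adjusted p = 0.0204). VEGFA was higher and ADM lower on both KO arrays, and neither was called with 12 arrays (adjusted p = 0.895 and 0.962). For ADM the arrays left out read 8.91 (labelled KO) and 8.35 (labelled parental). In the same fit GAPDH differed by −0.01, ALDOA by −0.01, PKM2 by 0.00, NDRG1 by 0.05 and HIF1A by −0.10, and none of these was called. After quantile normalization of the 10 arrays 9 members were called (27.3%, against 14.6% of all tested genes), adding HK2, SLC2A1 and SLC2A3.

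The third comparison asked what estradiol changed. In the mean response of both lines SLC16A3, VEGFA and BNIP3 rose and NDRG1, BNIP3L, PKM2 and ENO2 fell. A swap of the 2 arrays between the lines would leave this estimate as it is. These were 7 of 33 members (21.2%), 3 of the 20 glycolytic genes and 4 of the 12 hypoxia targets, where 10.6% of all tested genes were called, 1.85% higher and 8.76% lower. With 10 arrays the same 7 were called, where 14.4% of all tested genes were called, 2.56% higher and 11.8% lower. Of the marker lists, 4 of 8 epithelial and 2 of 3 tested fibroblast markers fell in the mean response, and their part was not tested.

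SLC16A3 read 13.04, 12.19 and 12.11 in estradiol-treated KO cells, against 11.41, 11.45 and 11.54 in untreated ones. In parental cells it read 12.81, 12.98 and 12.27 with estradiol, against 11.96, 11.72 and 11.59 without. Every estradiol array lay above every untreated array, and the mean response was 0.96 ± 0.15 SE (1.94-fold, adjusted p = 0.00123). With 12 arrays the response was 0.98 ± 0.22 in KO cells (adjusted p = 0.0222) and 0.93 ± 0.22 in parental cells (adjusted p = 0.0205). With 10 arrays it was 0.69 ± 0.10 in KO cells (adjusted p = 0.000232) and 1.14 ± 0.10 in parental cells (adjusted p = 5.59e-07). The response passed the test in each line in both fits. Of 12 fits that left out 1 array, the call was kept in 8 in parental cells and in 9 in KO cells. With a trended and robust prior it was lost in both lines.

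VEGFA, the main angiogenic growth factor, read 7.81, 7.99 and 7.91 in estradiol-treated KO cells, against 7.66, 7.68 and 7.60 in untreated ones. Parental cells read 7.67, 7.64 and 7.95 with estradiol, against 7.40, 7.44 and 7.37 without. Estradiol and untreated arrays did not overlap within either line (mean 0.30 ± 0.06, adjusted p = 0.00366). BNIP3 read 10.49, 10.80 and 10.44 in estradiol-treated KO cells, against 10.18, 10.01 and 10.10 in untreated ones. In parental cells it read 10.12, 10.01 and 10.77 with estradiol, against 9.87, 9.70 and 9.92 without. Within each line BNIP3 did not overlap either (mean 0.47 ± 0.11, adjusted p = 0.0158), and the highest parental value was on the array with a low MTDH level. With 10 arrays the response of BNIP3 was 0.52 in KO cells (adjusted p = 0.00341) and 0.23 in parental cells (adjusted p = 0.152).

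NDRG1 read 7.21, 7.23 and 7.17 in estradiol-treated KO cells, against 7.25, 7.29 and 7.21 in untreated ones. Parental cells read 7.10, 7.20 and 7.05 with estradiol, against 7.66, 7.66 and 7.58 without. The parental groups lay apart and the KO groups overlapped (mean −0.28 ± 0.04, adjusted p = 0.000678). By line, NDRG1 changed by −0.05 in KO cells (adjusted p = 0.764) and by −0.51 in parental cells. BNIP3L, the paralog of BNIP3, read 8.59, 8.90 and 8.57 in estradiol-treated KO cells, against 8.97, 8.85 and 8.84 in untreated ones. In parental cells it read 8.70, 8.50 and 8.90 with estradiol, against 9.01, 9.08 and 9.08 without. Its mean response was opposite in sign to that of BNIP3 (−0.28 ± 0.07, adjusted p = 0.0247) and was not called after quantile normalization (adjusted p = 0.0666).

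PKM2 read 10.51, 10.67 and 10.39 in estradiol-treated KO cells, against 10.61, 10.55 and 10.64 in untreated ones. The parental arrays read 10.54, 10.52 and 10.49 with estradiol, against 11.02, 11.10 and 10.83 without. The KO groups overlapped and the parental groups did not (mean −0.27 ± 0.06, adjusted p = 0.00835). By line, PKM2 changed by −0.08 in KO cells (adjusted p = 0.746) and by −0.47 in parental cells. ENO2 read 7.75, 7.44 and 7.51 in estradiol-treated KO cells, against 7.66, 7.63 and 7.83 in untreated ones. The parental arrays read 7.68, 7.70 and 7.45 with estradiol, against 7.95, 8.06 and 7.82 without. Here too the parental groups lay apart and the KO groups overlapped (mean −0.24 ± 0.07, adjusted p = 0.0433), and the call was lost after quantile normalization (adjusted p = 0.28).

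**Figure D3:**
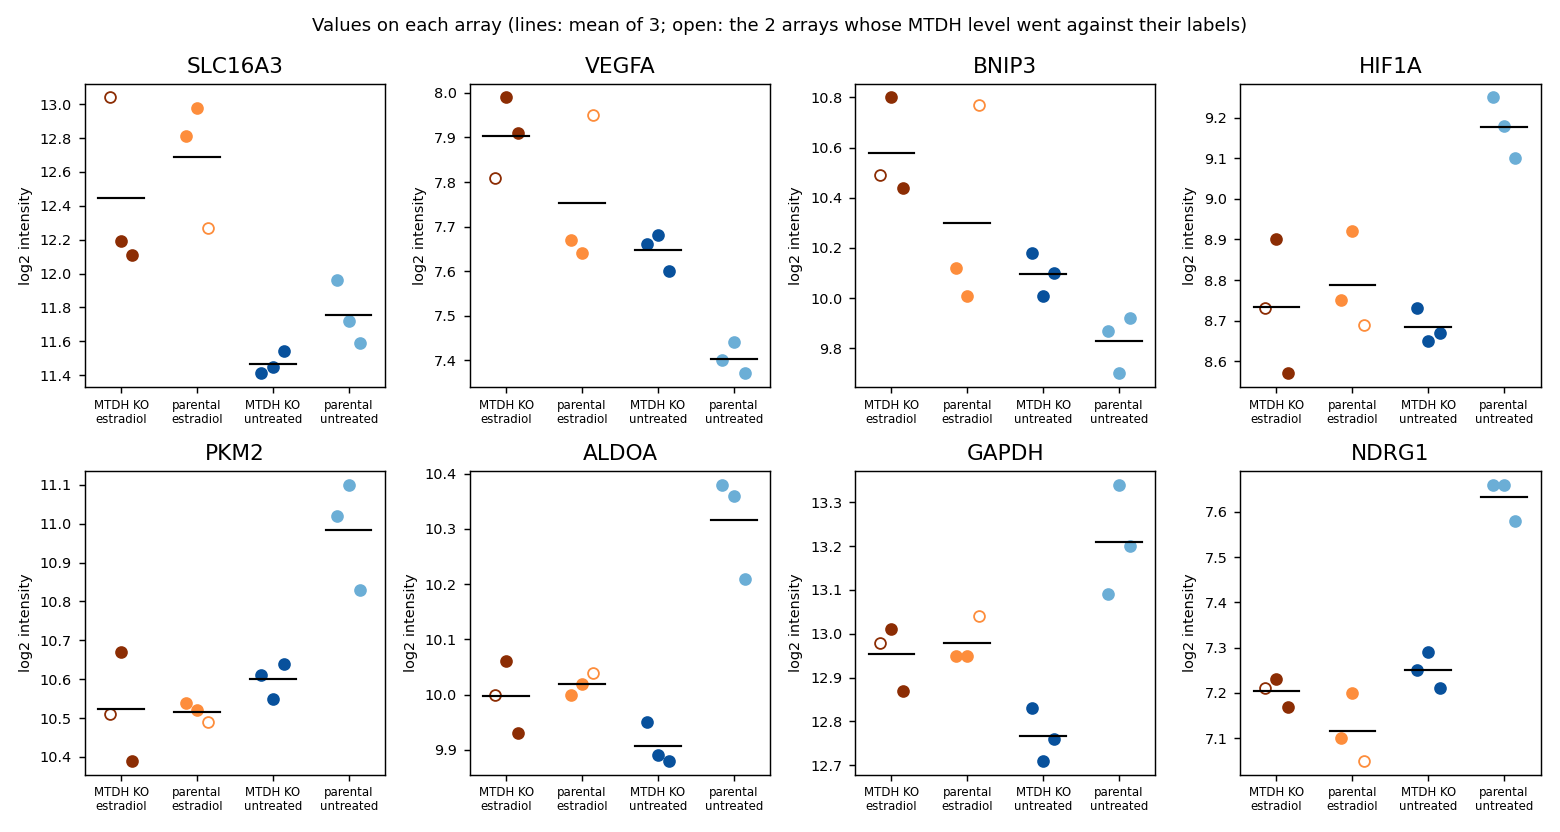
Points are log2 intensities on each array for single genes in the 4 groups, lines are means of 3 arrays, and open points are the 2 arrays with the MTDH level of the other line. Axes differ between genes and do not start at 0. SLC16A3 is higher with estradiol in both lines, where all 6 estradiol values exceed all 6 untreated ones, and HIF1A and NDRG1 are highest in untreated parental cells.

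In parental cells alone 6 of 33 members were called (18.2%), 2 higher and 4 lower, where 7% of all tested genes were called, 1.12% higher and 5.87% lower. Besides SLC16A3, VEGFA (0.35 ± 0.08, adjusted p = 0.0185), NDRG1 (−0.51 ± 0.06, adjusted p = 0.000235) and PKM2 (−0.47 ± 0.08, adjusted p = 0.00409), these were ALDOA and HIF1A. ALDOA read 10.00, 10.02 and 10.04 with estradiol, against 10.38, 10.36 and 10.21 without (−0.30 ± 0.06, adjusted p = 0.0127). HIF1A read 8.75, 8.92 and 8.69 with estradiol, against 9.25, 9.18 and 9.10 without (−0.39 ± 0.08, adjusted p = 0.0158). Neither gene's groups overlapped, and HIF1A lost its call after quantile normalization (adjusted p = 0.0667). This comparison and that of the untreated lines share the 3 untreated parental arrays.

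With 10 arrays 9 members were called in parental cells (27.3%), 2 higher and 7 lower, where 10.7% of all tested genes were called, 1.61% higher and 9.14% lower. The added falls were BNIP3L (−0.46 ± 0.09, adjusted p = 0.00427), HK2 and ALDOC. HK2 read 8.33 and 8.40 with estradiol, against 8.67, 8.84 and 8.63 without (−0.35 ± 0.10, adjusted p = 0.0251), and the array left out read 8.74. ALDOC read 8.29 and 8.18 with estradiol, against 8.43, 8.53 and 8.55 without (−0.27 ± 0.07, adjusted p = 0.0244), and the array left out read 8.55. For both genes the array left out lay among the untreated parental values. After quantile normalization of all 12 arrays, 3 members were higher and 3 lower in parental cells, where 4.5% of all tested genes were called, 2.11% higher and 2.39% lower.

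In KO cells alone SLC16A3 was the 1 member called of 33 (3.03%), where 3.88% of all tested genes were called, 1.18% higher and 2.69% lower, so the members' share was near that of all genes. With 10 arrays VEGFA (0.30 ± 0.07, adjusted p = 0.0131) and BNIP3 joined it, giving 3 of 33 (9.09%), all higher, where 6.8% of all tested genes were called, 2.54% higher and 4.26% lower. After quantile normalization 3 were called, SLC16A3, VEGFA and LDHA, where 5.44% of all tested genes were called, 2.4% higher and 3.05% lower. LDHA read 12.29, 12.48 and 12.21 in estradiol-treated KO cells, against 12.06, 12.01 and 12.11 in untreated ones, without overlap (0.27 ± 0.08, adjusted p = 0.0893). HIF1A read 8.73, 8.90 and 8.57 in estradiol-treated KO cells, against 8.73, 8.65 and 8.67 in untreated ones, with overlap (0.05, adjusted p = 0.841).

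**Figure D4:**
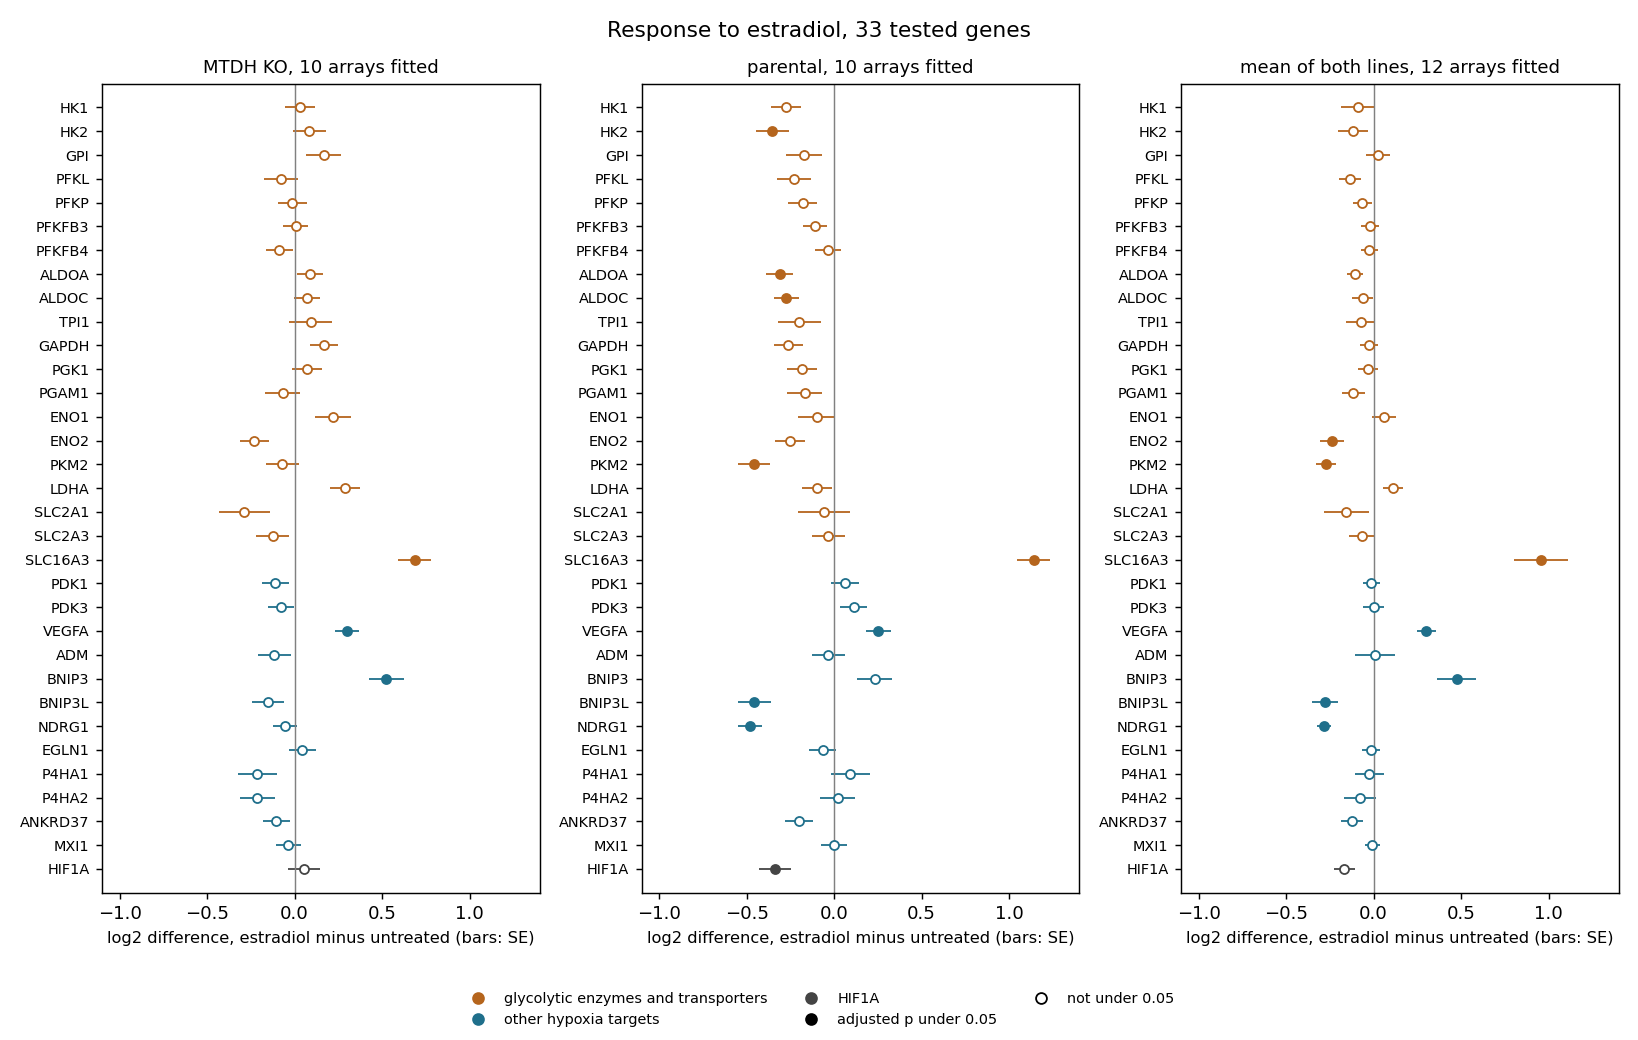
Points give the log2 difference of estradiol minus untreated cells for the 33 tested genes with SE bars, in MTDH KO cells, in parental cells (10 arrays fitted in both) and as the mean of both lines (12 arrays fitted). Filled points passed an adjusted p of 0.05. SLC16A3 stands at 0.69 in KO cells, 1.14 in parental cells and 0.96 in the mean.

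The counts depended on single arrays, and the share of all tested genes called was not counted for fits that left out 1 array. In parental cells 3 members were called without parental untreated 1 and 2 without parental untreated 2, and PKM2 and NDRG1 kept their calls throughout. In KO cells none was called without any 1 of the 3 untreated KO arrays, and 3 were called without parental estradiol 3. In the mean response 4 were called without parental untreated 2. PKM2, SLC16A3, VEGFA and NDRG1 kept their calls in the mean response under all 9 alternatives and without any 1 of the 12 arrays. BNIP3 was called in 11 of these 12 fits, BNIP3L in 7 and ENO2 in 2. After quantile normalization 4 members were higher and 2 lower in the mean response, where 9.49% of all tested genes were called, 4.3% higher and 5.19% lower.

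The last comparison asked whether the lines responded differently. The interaction is the response of KO cells minus that of parental cells. No member was called with 12 arrays, where 0.00508% of all tested genes were called, or with 10, where 0.752% of all tested genes were called, 0.483% higher and 0.269% lower. By limma, 11 of 33 members had an unadjusted p under 0.05 with 12 arrays and 13 with 10, against 2069 and 2683 of all 19670 tested genes. The smallest adjusted p belonged to NDRG1, with 12 arrays (0.46 ± 0.08, adjusted p = 0.103) and with 10 (0.43 ± 0.10, adjusted p = 0.0589). HIF1A stood at 0.44 ± 0.12, adjusted p = 0.197, GAPDH at 0.41 ± 0.10, adjusted p = 0.157, ALDOA at 0.39 ± 0.09, adjusted p = 0.142 and PKM2 at 0.39 ± 0.12, adjusted p = 0.228. The median was 0.21 over the glycolytic genes and −0.04 over the other hypoxia targets, against 0.02 over all tested genes. After quantile normalization of the 12 arrays these medians were 0.13, −0.07 and 0.002. By limma, 4 of 20 glycolytic genes then had an unadjusted p under 0.05, in place of 7. The interaction also uses the 3 untreated parental arrays, as the comparison of the untreated lines does. On the deposited scale SLC16A3 stood at 0.05 with 12 arrays (adjusted p = 0.973) and at −0.45 with 10 (adjusted p = 0.134).

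Genes of the same pathways outside the 35 were counted from separate lists, with 12 arrays unless said otherwise, and the shares of all tested genes are those given above for the same comparison. Of 15 other glycolytic genes tested, 1 was higher and 1 lower in untreated KO cells, the hexose transporters SLC2A6 (0.67 ± 0.14, adjusted p = 0.0113) and SLC2A12 (−0.51 ± 0.11, adjusted p = 0.0124). In the mean estradiol response 1 rose and 1 fell, the latter the enolase ENO3 (−0.25 ± 0.05, adjusted p = 0.00355). Both counts were 13.3% of the list, near the 10.9% and 10.6% of all tested genes. Of 8 genes of the pentose phosphate pathway, which branches from glycolysis, 2 fell in untreated KO cells, TALDO1 (−0.34 ± 0.08, adjusted p = 0.0155) and TKT (−0.31 ± 0.07, adjusted p = 0.0193), and none in the mean estradiol response. The 2 in untreated cells were 25% of the list, where 8.63% of all tested genes were lower. With 10 arrays 4 of the 8 fell in untreated KO cells (50%, against 13.6%). Neither TALDO1 nor TKT was called after quantile normalization (adjusted p = 0.13 and 0.129). Of 13 genes of pyruvate entry into mitochondria, the pyruvate dehydrogenase subunit PDHB fell in untreated KO cells (−0.37 ± 0.08, adjusted p = 0.0176). It was not called after quantile normalization (adjusted p = 0.143). This 1 of 13 was 7.69%, near the 8.63% of all tested genes that were lower. In the mean estradiol response PDHB (0.22) and PDHX (0.18) rose and pyruvate carboxylase, PC, fell (−0.29). These 3 were 23.1% of the list, against 10.6% of all tested genes. PDHB and PDHX were not called with 10 arrays (adjusted p = 0.0648 and 0.0716).

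Of 29 other hypoxia targets tested, 3 were higher and 1 lower in untreated KO cells (13.8%, against 10.9% of all tested genes). With 10 arrays 6 were higher and 3 lower (31%, against 19.5%). CITED2, whose product competes with HIF for coactivators (0.75 ± 0.19, adjusted p = 0.0243), TMEM45A (0.63 ± 0.18, adjusted p = 0.0406) and the heme oxygenase HMOX1 (0.23 ± 0.07, adjusted p = 0.0482) rose. The glycogen branching enzyme GBE1 fell (−0.60 ± 0.10, adjusted p = 0.00585). In the mean estradiol response 2 rose, the carbonic anhydrase CA12 (1.19) and the transcription factor BHLHB2 (0.43). Another 7 fell, among them RAB20 (−0.39) and ZNF395 (−0.37). Together they were 31% of the list, against 10.6% of all tested genes. With 10 arrays 4 rose and 9 fell (44.8%, against 14.4%). Of 18 regulators of HIF, 2 fell in untreated KO cells: RBX1, part of the ligase that marks HIF for degradation (−0.41 ± 0.09, adjusted p = 0.0151), and TSC2, a brake on mTOR signalling (−0.25 ± 0.08, adjusted p = 0.0458). This share, 11.1%, was near the 10.9% of all tested genes, and the same number fell with 10 arrays. TSC2 was not called after quantile normalization (adjusted p = 0.129). In the mean estradiol response SIAH2, a ligase that targets HIF hydroxylases, rose (0.61 ± 0.09, adjusted p = 0.000887). TSC2 (−0.36), the coactivator gene CREBBP (−0.24) and EPAS1, which encodes the HIF-2 alpha subunit (−0.22), fell. With SIAH2 these 4 were 22.2% of the list, against 10.6% of all tested genes.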

How the data were processed

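RNA from 12 samples was hybridized by Illumina's direct hybridization protocol, per the labels' protocols. The deposited values are log2 intensities with 1 value per gene symbol and array, a scale read from their range; no label or header states the background correction, the normalization or how probes were combined. All 12 columns were mapped to labelled samples. From these values, limma 3.58.1 in R 4.3.3 estimated the mean of each group and the contrasts between groups (8 residual degrees of freedom, 6 with 10 arrays). Genes above 6.817, the overall median value, on 3 or more arrays were tested. Two-sided p-values received the Benjamini-Hochberg adjustment across 19670 genes in each of 6 comparisons. Differences are log2, given with SE. The pipeline was tested on simulated data. Members and lists were chosen with earlier results of these data known. Every member called in any comparison, with 12 or 10 arrays, was named with its values; from each other list at most 4 called genes per comparison were named. In those lists 5 genes were found under an older symbol through RefSeq (GRCh38.p14), C12orf5 and HIG2 were not matched, and PKM2 was matched to PKM for its promoter. The alternatives changed the filter (none, or a higher one), the scaling (quantile normalization or median centring), the prior (trended and robust), the weighting of arrays, the blocking by replicate number and the arrays used (10, also after quantile normalization, or each array left out). Precision is limited by how many arrays each group has.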

Additional observations from a re-analysis of the deposited data

Results flagged for a closer look

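No member passed the test for a different response of the lines to estradiol with 12 or with 10 arrays on the deposited scale, and 1 did, SLC16A3, with 10 arrays after quantile normalization. Outside the 35 genes, DDIT4, an inhibitor of mTOR signalling from the list of other hypoxia targets, passed that interaction test with 10 arrays. Its response in KO cells minus that in parental cells was 0.685 ± 0.13 SE (adjusted p = 0.0284). DDIT4 read 12.14 and 12.06 in estradiol-treated KO cells, against 12.53, 12.32 and 12.37 in untreated ones. In parental cells it read 11.23 and 11.31 with estradiol, against 12.25, 12.44 and 12.08 without. The arrays left out read 11.26 (labelled KO) and 12.12 (labelled parental). It was not called with all 12 arrays, and after quantile normalization of those the difference was −0.03 (adjusted p = 0.981).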

How the results depend on the processing

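The numbers of members called were within 1.5 times of those reported except as follows. In untreated cells they were 17 with array weights and 18 without the 2 arrays, in place of 10. Between the lines in estradiol they were 6 without the 2 arrays and 9 without them after quantile normalization, in place of 0. For estradiol in parental cells array weights gave 11 in place of 6. In KO cells, in place of 1, quantile normalization gave 3, median centring 2, a trended and robust prior 0, leaving out the 2 arrays 3, and leaving them out with quantile normalization 4. Of all tested genes, 4.92% were called with median centring and 9.71% with the last of these. The interaction had 1 call without the 2 arrays after quantile normalization, SLC16A3 (−0.62, adjusted p = 0.0312), in place of 0. In that fit 1.2% of all tested genes were called. Leaving out each array gave 4 to 14 members in untreated cells, 2 to 8 for estradiol in parental cells, 0 to 3 in KO cells, 4 to 7 in the mean of both lines, and 0 throughout for the lines in estradiol and for the interaction. The causes were not tested. The share of all tested genes called was not counted with array weights, the trended prior, the replicate block or 1 array left out. Member counts under these settings therefore cannot be set against all genes. For the lines in estradiol, ADM was −0.317 without KO estradiol 1 and turned to 0.045 and 0.041 without KO estradiol 2 or 3. Over the named members and alternatives, 755 values kept their direction and call, 81 lost and 64 gained a call, and 2 turned. With the replicate number as a block, 9 members were called in untreated cells, 6 for estradiol in parental and 1 in KO cells, 7 in the mean and 0 in the other comparisons. The numbers were not taken to pair the arrays, since the labels give a number and nothing more. Residual correlations of the 18 pairs that share a number ran from −0.50 to 0.65, and 6 exceeded 0.1. The extreme values lay between the 2 estradiol groups, which hold the 2 arrays that went against their labels. These correlations therefore cannot show whether the arrays were paired. Probes cannot be separated in this table, and low signal limits CA9, EGLN3, MXI1, PDK1 and SLC2A3.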
